A study of Anguilla anguilla with 3 samples.

Results

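gdf9 (growth differentiation factor 9) and bmp15 (bone morphogenetic protein 15) were followed in the ovary of the European eel, Anguilla anguilla, at 3 life stages. They were taken as every predicted gene whose assigned name is gdf9 or bmp15. That gave 1 row for each name, and so 2 genes of the 45974 in the table. RNA was sequenced from 1 yellow eel, the growing stage, from 1 prepubertal silver eel, the stage that prepares for the sea, and from 1 matured eel sampled after spawning. Each library came from 1 animal of lake origin whose gonad was sampled in 3 places and pooled, so it describes an individual and not a stage. The yellow and matured eels came from Lake Veerse in spring, while the silver eel came from Lake Grevelingen in December, so for the silver library stage, lake and season cannot be told apart. How the matured eel was brought to maturity is not stated in the labels. With 1 eel per stage there was no replicate spread and no test, and every interval below is a 95% interval of counting error only.

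Both proteins are secreted growth factors of the TGF-beta superfamily that the oocyte itself makes. In mammals they are cut from precursors by proprotein convertases, bind receptor kinases on the granulosa cells around the oocyte and act through SMAD proteins, with effects on follicle growth and on the steroid output of the somatic cells. Both lack a cysteine that most relatives use to join their dimers covalently, and in mammals they can pair with each other. In zebrafish, bmp15 is needed to keep an adult ovary.

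The gdf9 gene (identifier g5262) has 1 predicted transcript of 2853 bases, and the authors' best protein match was sheep GDF9 with a mean similarity of 53.4%. The bmp15 gene (g4183) has 1 predicted transcript of 2211 bases, and its best match was sheep BMP15 with a similarity of 60.7%. All reads assigned to either gene aligned uniquely in all 3 libraries, so neither value depends on how reads with several alignments were shared out. The RefSeq annotation of the assembly fAngAng1.pri also holds 1 gene under each symbol. There, the nearest protein-coding genes with a symbol are atp7a and gnpda1 on either side of gdf9, and asb12b and leap2 on either side of bmp15. The authors' gene models were paired with RefSeq by symbol only.

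gdf9 was highest in the silver ovary and lowest in the matured ovary. It had 1619 reads in yellow, 4388 in silver and 1106 in the matured library. As CPM, the count scaled to a common library size, these are 60.9 CPM in the yellow library (interval 57.9 to 63.9), 116 CPM in silver (113 to 120) and 32.0 CPM in the matured library (30.1 to 33.9). The intervals of the 3 libraries do not overlap. They are narrow at such read counts, and how many other genes do the same was not counted.

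bmp15 was closer to level. It had 3115 reads in yellow, 5690 in silver and 3853 in the matured library. These are 117 CPM in the yellow library (interval 113 to 121), 151 CPM in silver (147 to 155) and 111 CPM in the matured library (108 to 115). The silver library was again the highest. The intervals of the yellow and matured libraries overlap, although the interval of their ratio (0.907 to 0.997) leaves out 1. The direction of that difference rests on the scaling, as given below.

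**Figure D1:**
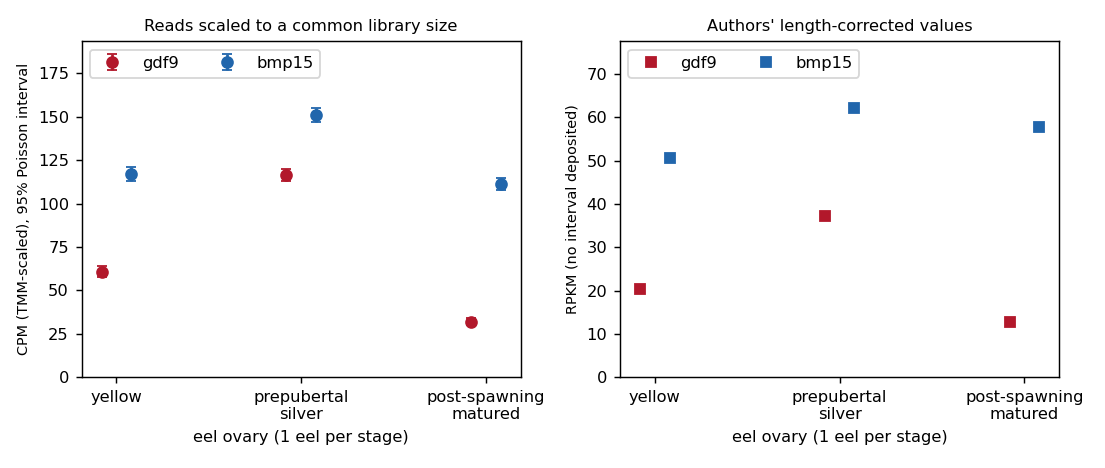
Level of gdf9 (red) and bmp15 (blue) in the ovary of 1 yellow, 1 silver and 1 matured eel. Left, CPM with the 95% Poisson interval of the read count as bars; right, the authors' RPKM. gdf9 stands at 60.9, 116 and 32.0 CPM in the yellow, silver and matured libraries, while bmp15 stays between 111 and 151 CPM.

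Levels of different genes can be set side by side only per transcript length, which the authors' RPKM values (reads corrected for transcript length and library total) allow. On that scale gdf9 was at 20.4 RPKM in yellow, 37.1 in silver and 12.9 in the matured library. bmp15 was at 50.7 RPKM in yellow, 62.1 in silver and 57.8 in the matured library, above gdf9 in all 3. Among the genes with reads, 92.2% in yellow, 94.3% in silver and 93.9% in the matured library had a lower RPKM than bmp15. For gdf9 the share was 80.7% in yellow, 90.0% in silver and 71.0% in the matured library.

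The balance between the growth factors can be read within each library, where no scaling between libraries enters. Per kilobase of transcript there were 2.48 bmp15 reads for each gdf9 read in the yellow ovary (interval 2.34 to 2.64), 1.67 in the silver ovary (1.61 to 1.74) and 4.50 in the matured ovary (4.20 to 4.81). The bmp15 to gdf9 ratio in the silver library was 0.674 times that in the yellow library (0.627 to 0.725). In the matured library it was 2.69 times that in the silver library (2.48 to 2.91) and 1.81 times that in the yellow library (1.65 to 1.98). All 3 intervals leave out 1, so the pair differed in balance between these libraries by more than counting error. Whether other eels of the same stage would differ as much was not measured.

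**Figure D2:**
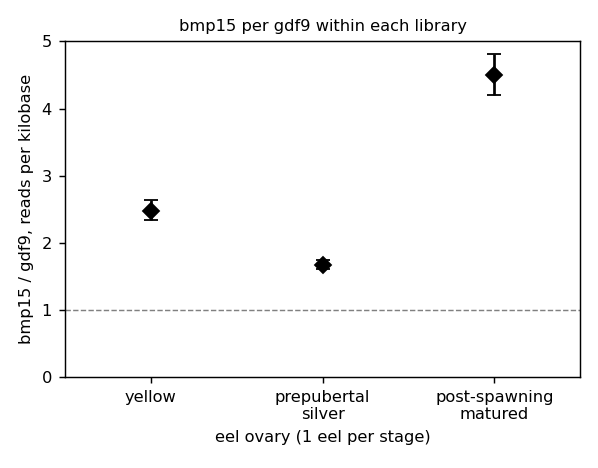
bmp15 reads per gdf9 read in each library, both per kilobase of transcript, with exact 95% intervals as bars and the line of equal levels dashed. The ratio is 2.48 in yellow, 1.67 in silver and 4.50 in the matured ovary.

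In silver versus yellow, which sets the prepubertal silver ovary against that of the growing stage, both growth factors were higher in the silver library. gdf9 was 1.91-fold higher (interval 1.81 to 2.03), and bmp15 was 1.29-fold higher (1.23 to 1.35). A gene was called higher or lower when its ratio, after adding 1 CPM to both libraries, reached 4-fold and at least 10 CPM were present in the library with more. By that rule 5.12% of 12462 genes were called, and neither growth factor was among them. The ratio of gdf9 was equalled or exceeded by 20.5% of the tested genes and that of bmp15 by 39.0%, so neither stands at the edge of the distribution.

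In matured versus silver, which sets the ovary after spawning against the prepubertal ovary, gdf9 was 3.64-fold lower in the matured library (interval 3.41 to 3.89). bmp15 was 1.36-fold lower (1.30 to 1.41). Here 6.84% of 12573 genes were called at 4-fold, again without either growth factor. At 2-fold gdf9 was called lower, as were 21.8% of the tested genes, and bmp15 was not. The ratio of gdf9 was as low or lower in 6.30% of the tested genes and that of bmp15 in 40.6%. The median log2 ratio of all tested genes was -0.21 with TMM scaling (which assumes that most genes do not differ) and 0.16 with library totals alone. Relative to that median gdf9 lay at -1.62 and bmp15 at -0.22, and over 5 scalings at -1.67 to -1.57 and at -0.26 to -0.21. A scaling shifts every gene and the median nearly alike. The narrow ranges thus follow largely by construction and are no check of the scaling.

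In matured versus yellow, the comparison of the eels that share a lake and a season, gdf9 was 1.90-fold lower in the matured library (interval 1.76 to 2.06). bmp15 had 111 CPM in the matured and 117 CPM in the yellow library, a ratio of 0.951 (0.907 to 0.997). The direction of bmp15 rests on the scaling, since its log2 ratio was -0.07 with TMM factors and 0.19 with library totals alone. A scaling shifts the median of all tested genes nearly as it shifts each gene. Relative to that median bmp15 lay between 0.03 and 0.08 over the same 5 scalings, and gdf9 between -0.81 and -0.73. With genes down to 1 CPM in that median bmp15 lay at -0.05 here and at -0.44 in matured versus silver, so it has no settled side of the median in matured versus yellow. Of 12553 genes 5.98% were called at 4-fold, neither growth factor among them, and 17.97% had a ratio as low as that of gdf9 or lower. The comparisons share libraries, so a high value in the silver eel enters the first and the second of them with opposite signs.

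The split of the 4-fold calls moved with the values used. In silver versus yellow 460 genes were called higher and 178 lower with TMM factors, against 396 and 188 with library totals and 323 and 202 with the authors' RPKM, which also changes the unit that the added 1 applies to. In matured versus silver 281 were higher and 579 lower, against 444 and 327 with library totals and 310 and 291 with RPKM. In matured versus yellow 426 were higher and 325 lower, against 628 and 217 with library totals.

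**Figure D3:**
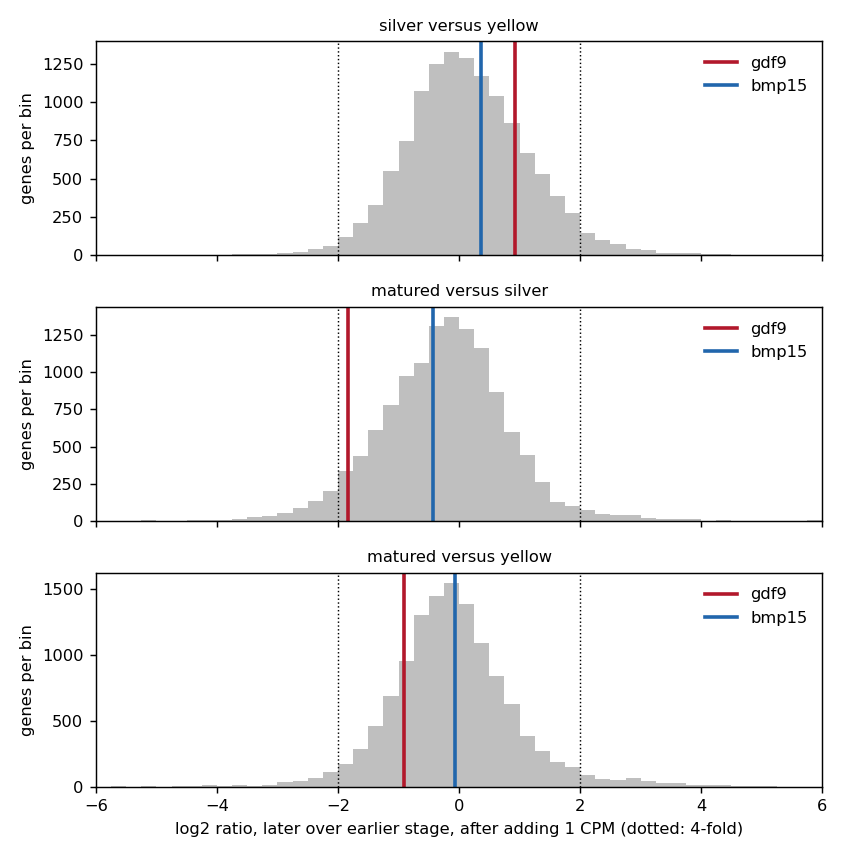
Distribution of log2 ratios (later over earlier stage, after adding 1 CPM) over all tested genes in each comparison, in bins of genes, with gdf9 and bmp15 as vertical lines and the 4-fold limits dotted. Values beyond the axis are counted in the outermost bins. gdf9 lies inside the limits throughout and comes nearest to them in matured versus silver, at -1.83.

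The authors' deposited table gives folds for the same comparisons from DESeq, a count model that without replicates took its variance from the 3 libraries. For gdf9 the authors' deposited table has a fold of 1.94 in silver versus yellow, 0.265 in matured versus silver and 0.515 in matured versus yellow. For bmp15 the authors' deposited table has 1.31, 0.713 and 0.933 in the same order. The p-values deposited with these folds are left out, since without replicates they rest on no spread between eels of a stage.

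Because both transcripts are made by oocytes, they were set beside other oocyte genes. Bulk tissue holds all ovarian cells, so fewer oocytes and less RNA per oocyte cannot be told apart. Of the 20 names of the oocyte list 14 matched 36 gene rows, among them the egg coat genes zp1 to zp4, the maternal factor zar1 and the germ line genes ddx4 and dazl, and all 36 had reads in every library. Their summed level was 58428 CPM in yellow, 46944 in silver and 39146 in the matured library. The egg coat genes zp2 (g45297) and zp3 (g36576) led it, with zp2 at 15099.9 CPM in yellow, 11352 in silver and 10033 in the matured library.

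Against these genes the place of gdf9 and bmp15 differed by comparison. In silver versus yellow the median log2 ratio of the 30 oocyte rows tested was -0.47, with 2 called lower (1.43% of all tested genes were) and none higher, against 0.92 for gdf9 and 0.36 for bmp15. Of the 30 rows 27 lay below gdf9 and 23 below bmp15. In matured versus silver the median of 27 tested rows was -0.44, with 4 called lower (4.61% of all tested genes were) and none higher, close to the -0.43 of bmp15, and 5 rows lay below the -1.83 of gdf9. In matured versus yellow the median of 30 rows was -0.92, with 3 called lower (2.59% of all tested genes were) and none higher, beside -0.91 for gdf9 and -0.07 for bmp15, and 27 rows lay below bmp15. A tdrd7 row (g42983, 294 bases), named after its values were seen, was among those called lower in both comparisons with yellow. It had 10.2 CPM in yellow, 1.80 in silver and 0.896 in the matured library, and so was tested only through yellow. So were ddx4 (g28375), piwl1 (g33211) and piwl2 (g7999) in silver versus yellow. In matured versus yellow the same held for piwl1, piwl2 and zp3 (g29228), the last of them called lower. In matured versus silver zp3 (g29228) was tested only through silver and ddx4 (g28375) only through matured. The filter fixed the sign of such rows, so the medians and counts rest on it in part.

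As a share of the reads of the gene itself plus the oocyte rows, gdf9 made up 0.104% in the yellow library (interval 0.0990 to 0.109), 0.247% in silver (0.240 to 0.255) and 0.0816% in the matured library (0.0768 to 0.0865). bmp15 made up 0.200% in yellow (0.193 to 0.207), 0.320% in silver (0.312 to 0.329) and 0.284% in the matured library (0.275 to 0.293). Against other oocyte transcripts, then, bmp15 was lowest in the yellow library, although with TMM scaling its CPM was slightly higher there than in the matured library. Egg coat genes fill most of that sum. Without them the share of gdf9 was 1.57% in yellow, 2.82% in silver and 1.85% in the matured library, which turns round the order of yellow and matured, and that of bmp15 was 2.98%, 3.62% and 6.18% in the same order and put the matured library first.

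**Figure D4:**
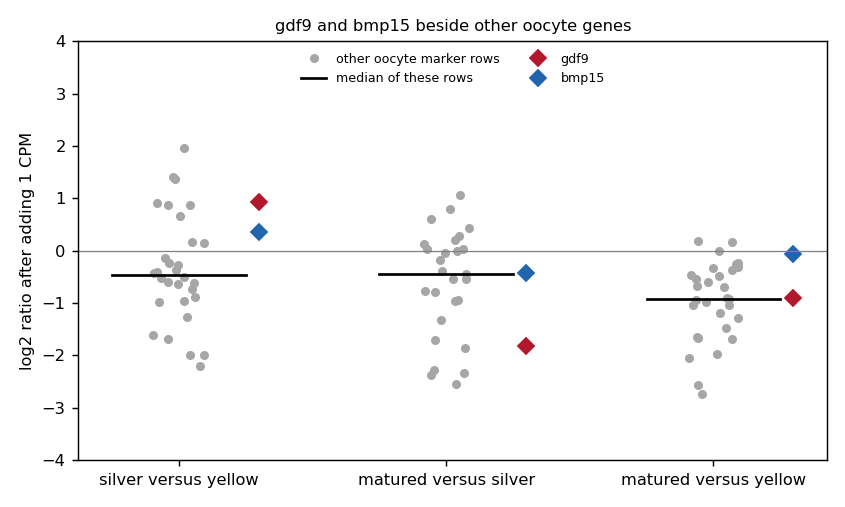
Log2 ratio after adding 1 CPM of the oocyte marker rows (grey, median as a black line) with gdf9 (red) and bmp15 (blue) beside them, for the 3 comparisons, in rows of at least 10 CPM in either library compared. gdf9 lies above the oocyte median in silver versus yellow (0.92 against -0.47) and below it in matured versus silver (-1.83 against -0.44).

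Of the 30 oocyte rows with at least 10 CPM in a library, 20 were highest in yellow and 2 in the matured library. Of all 13333 genes at that level 4485 were highest in yellow and 3410 in the matured library. The oocyte rows piwl1 (g33211), piwl2 (g7999) and tdrd7 (g42983) reached 10 CPM only in yellow. The other 8 of the 30 oocyte rows were highest in silver and lowest in the matured library, as gdf9 was, and as bmp15 was with TMM scaling. With library totals or RPKM bmp15 was lowest in yellow. The order of silver highest and matured lowest held for 3059 of 13333 genes of all kinds, or 22.9%. Singled out from these 8 oocyte rows after their values were seen, the kinase mos had 419 CPM in yellow, 1108 in silver and 219 in the matured library. The germ cell regulator nano3 had 217 CPM in yellow, 559 in silver and 95.04 in the matured library.

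Marker genes of other ovarian cells also differed between the libraries. The summed CPM of the granulosa marker rows was 25.4 in yellow, 68.4 in silver and 175 in the matured library over 12 rows, and that of the theca rows was 106, 97.5 and 492 over 7 rows in the same order. Most of the higher theca sum in the matured library came from cp17a, led by g22995 at 2.78, 31.1 and 302 CPM in that order. The main 3bhs row of that list (g10190) was instead highest in yellow, at 70.8, 39.8 and 53.4 CPM. The immune rows summed to 13.5, 23.4 and 381 CPM over 14 rows, and the smooth muscle and stroma rows to 75.4, 105 and 1090 CPM over 20 rows, in the same order. At 0 reads were a foxl2 copy of the granulosa list in the matured library and an lshr copy of the theca list in the yellow library. In the immune list a csf1r copy was at 0 in every library and a mucm copy in the silver library, and 4, 3 and 2 stroma rows, all desm or acta copies, were at 0 in the yellow, silver and matured libraries. The erythrocyte rows summed to 4.02, 12.9 and 9.51 CPM in the yellow, silver and matured libraries over 3 rows, none at 0. In matured versus silver, 10 of 10 immune rows, 8 of 8 stroma rows, 3 of 5 theca rows and 0 of 3 granulosa rows tested were called higher, and none lower, where 2.23% of all tested genes were called higher. The theca rows called higher were all cp17a copies. In matured versus yellow 3 of 3 granulosa rows tested were called higher, beside 426 of 12553 genes. The highest granulosa row in yellow was at 8.95 CPM, so these were tested only through the matured library. No immune row reached 10 CPM in the yellow or silver library, where the highest were at 8.08 and 6.95 CPM. The immune rows, and some stroma and theca rows, were thus tested only through the matured library. Their counts of calls follow in part from that filter and are no measure of enrichment. The part of this change in cell markers in the gdf9 and bmp15 values was not tested.

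Among the 32 rows made up of gdf9, bmp15 and the superfamily ligands of a chosen list, bmp15 ranked first by RPKM in all 3 libraries. Ligands outside that list were not ranked. gdf9 ranked number 2 in the yellow and silver libraries and number 4 in the matured library. The next row in the yellow library was inha (g40143), an inhibin alpha subunit fragment of 308 bases, at 5.14 RPKM, and in the silver library bmp2 (g1844), a BMP ligand, at 11.6 RPKM. In the matured library inha (g40143) reached 35.9 RPKM and a second inha fragment (g41160) 24.8 RPKM, which places them between bmp15 and gdf9. The inha rows were named after their values were seen and lie below 10 CPM in every library.

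Of the ligands, bmp2 (g1844) followed the order of gdf9 in part. It had 6.92 CPM in yellow, 32.4 in silver and 8.26 in the matured library, 4.69-fold higher in silver than in yellow (interval 4.01 to 5.50) and 3.92-fold lower in matured than in silver (3.44 to 4.48). The growth factor tgfb2 (g2171) stayed between 12.5 and 20.7 CPM. tgfb1 (g13421), named after its values were seen, had 0.677 CPM in yellow, 1.25 in silver and 10.1 in the matured library.

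In mammals BMPR2 is the type II receptor of both growth factors, with TGFBR1 as the type I receptor for GDF9 and BMPR1B for BMP15, and the eel rows of these names are given for that role. The 6 bmpr2 rows summed to 1.28 CPM in yellow, 1.83 in silver and 2.86 in the matured library. The 7 tgfr1 rows summed to 12.4, 7.58 and 10.3 CPM in the same order. The single bmr1b row (g26663) had 3.08 CPM in yellow, 3.95 in silver and 12.1 in the matured library, 3.06-fold higher in matured than in silver (2.53 to 3.71). That is the opposite of the order of gdf9 between these libraries. The BMP type I receptor bmr1a summed to 61.2, 58.2 and 44.0 CPM in the yellow, silver and matured libraries over 4 rows, and the TGF-beta type II receptor tgfr2 to 44.7, 61.4 and 43.2 CPM over 2 rows in the same order. These sums are not corrected for length, and many of the models are short fragments, so they give no order between the receptors. The activin receptor-like kinase acvr1 summed to 32.0, 69.4 and 56.4 CPM over 6 rows in the same order, and its rows differed. The row g14908 had 9.40 CPM in yellow, 14.1 in silver and 19.5 in the matured library, while g11303 was 3.18-fold higher in silver than in yellow (2.79 to 3.64) and 2.70-fold lower in matured than in silver (2.42 to 3.03).

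The SMAD transducers carry the receptor signal to the nucleus, smad2 and smad3 for the TGF-beta and activin branch and smad1 and smad5 for the BMP branch. All 7 SMAD transducer rows tested in silver versus yellow had a ratio below 0, with a median of -0.59 and none called, where 46.4% of all tested genes lay below 0. Of these rows 4 are smad2 models, some of them short fragments. The smad2 rows g32745 (11.5 CPM in yellow, 9.31 in silver) and g31295 (19.3 and 7.80 CPM) were tested only through yellow. That filter fixed their sign. SMAD rows below 10 CPM in both libraries were not tested and went both ways. Named after their values were seen, smad4 (g14797) lay at 0.11 and smad9 (g24837) at -0.61. The main smad2 row (g7548) had 113 CPM in yellow, 76.2 in silver and 72.2 in the matured library. smad5 (g11452) had 42.1, 30.4 and 68.7 CPM in the yellow, silver and matured libraries. A smad3 row (g43866) was 7.00-fold lower in matured than in yellow (6.12 to 8.02), but its model spans only 154 bases. Longer smad3 rows, named after their values were seen and below 10 CPM in every library, did not share that direction. The row g10630, of 2930 bases, was 3.12-fold higher in matured than in yellow (2.13 to 4.69). For g12061 the ratio was 1.15 (0.853 to 1.55). Of the inhibitors inside or at the membrane of the cell, the decoy receptor bambi (g13418) had 150 CPM in yellow, 297 in silver and 180 in the matured library.

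Outside the cell, the BMP antagonist noggin, nogg2 (g22318), had 2.33 CPM in yellow, 11.8 in silver and 93.3 in the matured library. It was 7.90-fold higher in matured than in silver (interval 7.16 to 8.75) and 40.0-fold higher in matured than in yellow (31.1 to 52.3). The follistatin-related gene fstl1 (g17011) was 5.57-fold higher in matured than in yellow (4.84 to 6.45). Among the convertases that cut such precursors, pcsk6 (g12353) had 73.9, 159 and 75.9 CPM in yellow, silver and matured libraries, and the main pcsk5 row (g7883) had 100.02, 53.3 and 115 CPM in the same order. The silver library was thus the highest for pcsk6 and the lowest for this pcsk5 row.

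The id1 genes, which encode inhibitors of basic helix-loop-helix factors and are direct targets of BMP signalling in vertebrates, were called in all 3 comparisons through at least 1 of their rows. The id1 row g20038 had 117 CPM in yellow, 692 in silver and 48.9 in the matured library. It was 5.93-fold higher in silver than in yellow (5.71 to 6.15) and 14.1-fold lower in matured than in silver (13.5 to 14.9). The row g5955 had 67.0, 126 and 15.4 CPM in the yellow, silver and matured libraries, and was 8.17-fold lower in matured than in silver (7.47 to 8.95). Both id1 rows shared with gdf9 the order silver, yellow, matured from high to low, as did 22.9% of all genes with at least 10 CPM in a library. Other target rows of the list did not. The protease inhibitor pai1 was highest in the matured library. An id2 row (g7381), named after its values were seen, had 4.40 CPM in yellow, 14.5 in silver and 6.65 in the matured library.

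The oocyte transcription factor nobox (g9131), which in mouse activates Gdf9 and Bmp15, had another order. It had 90.7 CPM in yellow, 25.2 in silver and 25.5 in the matured library, and so was 3.59-fold lower in silver than in yellow (3.33 to 3.88), where both growth factors were higher. lhx8 (g16744), a LIM homeobox factor of the oocyte, had 67.4, 60.2 and 38.2 CPM in the yellow, silver and matured libraries.

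Over the whole list of ligands, receptors, transducers, inhibitors, convertases, targets and regulators, 59 of 83 names matched 145 rows. In silver versus yellow 2 of 35 tested rows were called higher (bmp2 and the id1 row g20038) and 0 lower, which is 5.71% beside 5.12% of all genes, and the median log2 ratio was 0.07 beside 0.09. In matured versus silver 2 of 38 were called higher (nogg2 and tgfb1) and 2 lower (both id1 rows), with a median of -0.10 beside -0.21 over all genes and 10.5% called beside 6.84%. In matured versus yellow 4 of 37 were called higher, namely nogg2, fstl1, tgfb1 and the protease inhibitor pai1. There 2 were called lower, namely the short smad3 fragment g43866 and the id1 row g5955. The median there was 0.04 beside -0.14 over all genes, and the share called was 16.2% beside 5.98%. All 4 rows called higher in matured versus yellow lay between 0.677 and 8.23 CPM in yellow, and so were tested only through the matured library. Likewise bmp2 was tested only through silver in silver versus yellow, and tgfb1 only through the matured library in matured versus silver. The list was also chosen with earlier results of these data known, so the shares called are no measure of enrichment. pai1 (g11473), named after its values were seen, had 0.677 CPM in yellow, 4.48 in silver and 20.7 in the matured library. The rows called higher in the matured library were picked by that direction. That they share it with the stroma and immune markers given above follows from the call. The part of those cells was not tested.

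**Figure D5:**
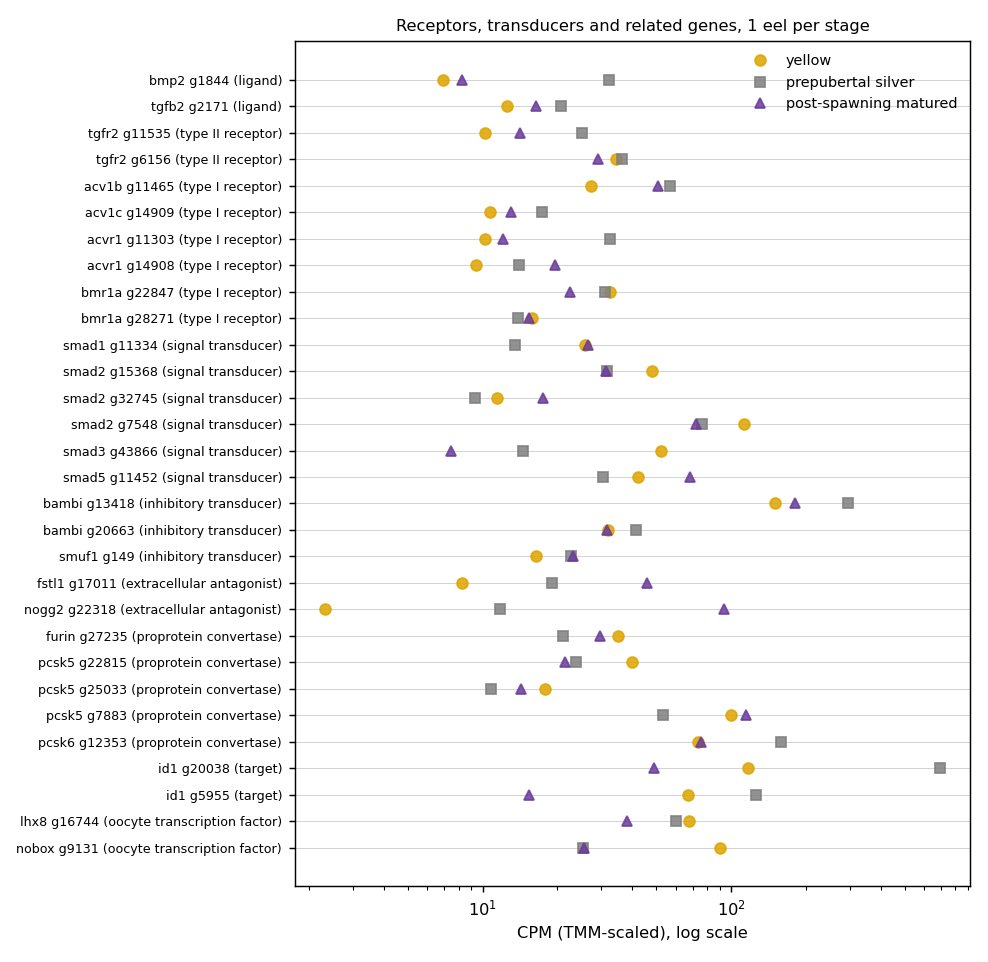
CPM on a log axis in yellow, silver and matured ovary for the 30 most abundant rows of the list, ordered from ligands and receptors down to targets and oocyte transcription factors. The id1 row g20038 lies at 117, 692 and 48.9 CPM in the yellow, silver and matured libraries, and nogg2 at 2.33, 11.8 and 93.3 CPM in the same order.

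The genes most like each growth factor were found among 11704 named genes with at least 10 CPM in a library, by the distance between their centred log2 levels over the 3 libraries. With 3 libraries many genes lie close by. Nearest to gdf9 was pdpfb (g10058), described by the authors as a pancreatic progenitor differentiation and proliferation factor, at 288 CPM in yellow, 555 in silver and 154 in the matured library. It was followed by the lipoxygenase lox5, the centromere protein gene cenpl, lyrm2 and the claudin cld7a, all within a distance of 0.035. Nearest to bmp15 was the proteasome subunit prs4 (g7484), at 165 CPM in yellow, 213 in silver and 157 in the matured library. tisda, a histone h2a row, ORAV1 and the peptidase xpp1 followed, within 0.017.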

How the data were processed

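Gene models come from Augustus, names from Blast2GO protein matches, and read alignment and counting from CLC bio, per the file headers. The deposited counts are corrected total reads per gene, in which reads with several alignments are distributed, and counts of unique reads. The authors made the RPKM values from corrected reads, transcript length and library total. The fold (a ratio of later to earlier stage), an adjusted log2 value that is not the log2 of that fold, and raw and adjusted p-values come from DESeq, run by the authors. CASAVA, HTSeq, SAMtools 0.1.18 and TopHat2 2.0.5 are named without roles in the submitters' processing notes. No genome build is stated there or in the headers. Per the labels' protocols, libraries were made from 10 micrograms of total RNA. A line of column totals and 1 blank line name no gene and were left out, with 0 reads lost.

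Library totals were 27811764 (yellow), 41426808 (silver) and 30137882 (matured) reads, of which 97.9% to 98.2% were unique. Counts were scaled with TMM factors (edgeR 4.0.16, R 4.3.3; 0.957, 0.910 and 1.15) to CPM. A level has an exact Poisson interval, a fold and a ratio of levels an exact conditional (Clopper-Pearson) interval, and a share an exact binomial one. PCR copies are not independent molecules, so intervals cover counting error only. Alternatives were DESeq2 1.42.0 size factors, library totals, unique reads, RPKM, pseudocounts of 0.1 and 5 CPM, a 2-fold threshold and a minimum of 1 CPM. Genes of the list were named if among its 30 most abundant rows with at least 10 CPM in a library, plus the 5 nearest genes of each growth factor with exceptions said where they occur. Marker genes are named to describe what a list holds, which of its rows led a sum, were called or were tested through a single library, or which had no reads. The members and lists were chosen with earlier results of these data known. Python 3.11.15 with scipy 1.17.1 was used.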

Additional observations from a re-analysis of the deposited data

How the results depend on the processing

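With 1 eel per stage, no replicate could be left out. No paired analysis was possible because each stage has a single library. Counting error is small at these depths, so the missing eels and the scaling set the limits. Of the alternatives, DESeq2 factors, library totals and RPKM could turn a direction. gdf9 kept its direction under these in all 3 comparisons, and bmp15 did so except in matured versus yellow with library totals and RPKM. With library totals the log2 ratio of bmp15 was 0.29 in silver versus yellow, -0.10 in matured versus silver and 0.19 in matured versus yellow, and that of gdf9 was -1.50 in matured versus silver and -0.65 in matured versus yellow. With the authors' RPKM the values of bmp15 were 0.29, -0.10 and 0.19, and those of gdf9 0.83, -1.46 and -0.63. With 5 CPM added gdf9 was at -1.72 in matured versus silver. All reads of both genes are unique, so unique reads give no separate check of their ratio. Without the egg coat genes the oocyte share of gdf9 was 1.57%, 2.82% and 1.85% and that of bmp15 2.98%, 3.62% and 6.18% in the yellow, silver and matured libraries.

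Counts of called genes followed the threshold by construction. In silver versus yellow, against 460 higher and 178 lower, there were 2318 and 1386 at 2-fold and 214 and 68 with 5 CPM added. In matured versus silver, against 281 and 579, there were 1212 and 2739 at 2-fold, 100 and 326 with 5 CPM added, 444 and 327 with library totals, and 291 lower with RPKM. In matured versus yellow, against 426 and 325, there were 1426 and 1933 at 2-fold, 149 and 132 with 5 CPM added, 671 higher at a minimum of 1 CPM and 209 lower with RPKM. Of the list rows, against 2 higher and 0 lower in silver versus yellow, there were 9 and 3 at 2-fold and 1 higher with RPKM or 5 CPM added. Against 2 and 2 in matured versus silver, there were 8 and 8 at 2-fold, 1 higher with DESeq2 factors, RPKM or 5 CPM added, 5 higher with library totals and 4 higher at 1 CPM. Against 4 and 2 in matured versus yellow, 6 were lower at 2-fold, 1 was lower with library totals, RPKM or 5 CPM added, and 2 were higher with 5 CPM added. With library totals 4 of the 5 nearest genes were kept for gdf9 and 4 of 5 for bmp15.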
